A study of Mus musculus with 9 samples.

Results

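The genes described here lie in 1 region of mouse chromosome 13, the cluster that holds the placental cathepsins, the Ctla2 genes and the trophoblast specific proteins. The 8 members are 4930486L24Rik, Ctla2a, Ctla2b, Tpbpa, Tpbpb, Ctsj, Ctsq and Cts3. All 8 were found among the 25965 rows of the deposited table, and each row is called a gene here. 4930486L24Rik was selected on its measured log2 levels in these same libraries, which were lower with Dppa2 siRNA than with Dppa4 siRNA, so its values are given as a description, and nothing is supported with a test of it. The other 7 were taken for their place or family, to ask whether neighbours share that response.

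RNA sequencing of polyadenylated RNA was done on E14 mouse embryonic stem cells of the 129/Ola strain, grown without feeder cells in medium with serum and LIF. The study describes its knockdowns in cells that carry the fluorescent reporters MERVL::tdTomato and Zscan4c::eGFP. The cells received control siRNA, Dppa2 siRNA or Dppa4 siRNA at 0 h and again at 48 h and were collected at 96 h, on day 4. Each siRNA has 3 libraries, labelled 3A, 3B and 3C in every group and called A, B and C here. The values are bulk measurements, so fewer cells with a transcript and less of it in each cell cannot be told apart. The study calls its replicates biological. The labels give all 9 libraries the same replicate number and do not say that those of a group came from separate cultures. The p-values measure the spread between these 9 libraries.

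Cathepsin L is a lysosomal cysteine protease found in most cells, and rodents carry a set of its relatives whose transcripts are known mainly from the placenta. Ctla2a and Ctla2b resemble the propeptide of cathepsin L, the segment that keeps the enzyme inactive, and Tpbpa and Tpbpb mark trophoblast lineages of the placenta. Dppa2 and Dppa4 are chromatin-bound proteins of pluripotent cells and early embryos that are known to be needed for transcripts of the 2-cell-like state, a rare state of embryonic stem cells.

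The deposited values are log2 expression levels whose distributions the authors matched across libraries. A gene with no read takes the lowest value of its library, between −4.50 and −4.47. Because low levels rise in steps of 1 read, the reads behind a low value can be counted from the order of the distinct values. The estimated depth was 24.3, 39.7 and 20.7 Mreads (mega-reads) in the control libraries, 26.7, 19.9 and 16.8 Mreads with Dppa2 siRNA and 29.0, 30.4 and 21.2 Mreads with Dppa4 siRNA. Of the 25965 genes, 7462 (28.7%) had 0 reads in all 9 libraries.

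Both siRNAs lowered their own target, to different depths. Dppa2 kept 8.98% ± 1.54 (SD, n = 3) of its mean linear control level with Dppa2 siRNA, a log2 change of −3.49 in 3 of 3 libraries (SE 0.14, adjusted p = 2.13e-05). Dppa4 kept 52.4% ± 1.22 (SD, n = 3) with Dppa4 siRNA, a log2 change of −0.93 in 3 of 3 libraries (SE 0.08, adjusted p = 0.000281). The other target did not pass the test with either siRNA. Dppa2 stood at 96.2% ± 5.87 with Dppa4 siRNA (adjusted p = 0.921), and Dppa4 at 103.7% ± 3.46 with Dppa2 siRNA (adjusted p = 0.888; SD, n = 3 for both).

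4930486L24Rik (ENSMUSG00000050345, chr13:60842621-60864416, minus strand, build GRCm38) was the member with a transcript well above the detection limit. Its log2 level was 0.03, 0.62 and 0.67 in the control libraries A, B and C. With Dppa2 siRNA it was −4.05, −3.84 and −4.47, and with Dppa4 siRNA −0.94, −0.83 and −0.83. The 3 groups do not overlap: every control library lies above every Dppa4 siRNA library, and every Dppa4 siRNA library above every Dppa2 siRNA library. The order of the knockdowns is what the gene was selected for. The share of all tested genes whose groups separate in this way was not counted, and nothing is read from the separation. The means were 0.44 ± 0.36 in the control, −4.12 ± 0.32 with Dppa2 siRNA and −0.86 ± 0.06 with Dppa4 siRNA (SD, n = 3). The difference from the control was thus −4.56 for Dppa2 siRNA and −1.30 for Dppa4 siRNA, and the Dppa4 siRNA mean was 3.26 above the Dppa2 siRNA mean. With 1 added to the linear value before the log, which shrinks differences near 0 reads, these are −1.16, −0.61 and 0.55.

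Reads give the same order and show how few of them there are. The control libraries had 33, 87 and 41 reads of 4930486L24Rik, the Dppa2 siRNA libraries 1, 1 and 0, and the Dppa4 siRNA libraries 16, 17 and 12. Library C of the Dppa2 siRNA group is at the level of a gene with no read. After correction for depth, the 2 reads left with Dppa2 siRNA are 1.70% of the control reads (exact binomial 95% interval 0.205% to 6.25%). The 45 reads with Dppa4 siRNA are 31.7% of them (22.2% to 44.3%). These intervals, and the floor of 3 reads used below for a count of 0, cover counting error only. Dppa2 siRNA left 8.98% of its target and Dppa4 siRNA 52.4%. These shares are of RNA. Both proteins were measured in the study by Western blot, which is not in these files, and the RNA does not give how far either protein was lowered by either siRNA. The depth of the knockdown in RNA differs between the siRNAs along with the level of 4930486L24Rik, and its part in the difference was not tested.

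**Figure D1:**
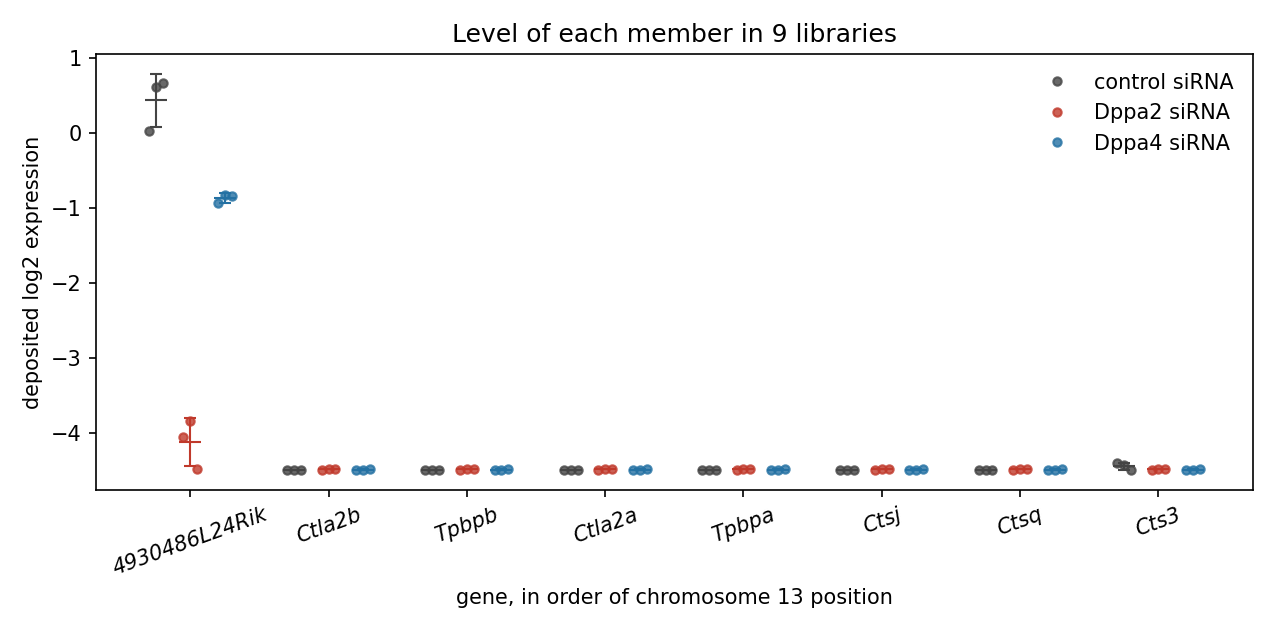
Deposited log2 expression of the 8 members (vertical axis) in order of their position on chromosome 13 (horizontal axis), with 1 point for each of the 9 libraries; the long ticks are group means and the bars are SD (n = 3). 4930486L24Rik lies at a mean of 0.44 in the control, −4.12 with Dppa2 siRNA and −0.86 with Dppa4 siRNA, and the other 7 members lie at or next to the value that stands for 0 reads.

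The other 7 members were at or near 0 reads whatever the siRNA. The cathepsin inhibitors Ctla2a (chr13:60934155-60936625) and Ctla2b (chr13:60895351-60897447) had 0 reads in all 9 libraries. So had Tpbpa (chr13:60938692-60941935), a marker of the spongiotrophoblast, and its relative Tpbpb (chr13:60901297-60904847). The placental cathepsins Ctsj (chr13:61000278-61005916) and Ctsq (chr13:61035027-61040631) were likewise at 0 in all 9. A count of 0 allows up to 3 reads in a library, which for these 6 genes is at most 0.279 reads per kilobase of transcript and Mreads. On that scale 4930486L24Rik stood at 0.949, 1.53 and 1.38 in the control libraries. In each control library the floor of these 6 genes lies below the level of 4930486L24Rik.

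Cts3 (chr13:61564631-61570127), a placental cathepsin at the far end of the cluster, was the other member with any read. It had 1, 2 and 0 reads in the control libraries and 0 in each of the 6 knockdown libraries. Both groups of knockdown libraries and the control are at or under the floor of 3 reads in a library, so no fold is given. If Cts3 kept the same share of its control reads as 4930486L24Rik, 0.0373 reads would be left in the Dppa2 siRNA libraries together and 0.839 in the Dppa4 siRNA libraries. A Dppa2-stronger response of Cts3 was not detectable at this depth.

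Of the 8 members, 1 passed the filter on low values, 4930486L24Rik, and 7 did not. Among the 7 others 0 were therefore tested and 0 called in each of the 3 comparisons. Over all 14601 genes that passed, limma with the intensity difference filter called 279 (1.91%) with Dppa2 siRNA against control siRNA, 224 lower and 55 higher. It called 284 (1.95%) with Dppa4 siRNA against control siRNA, 230 lower and 54 higher. In Dppa4 siRNA against Dppa2 siRNA it called 3 (0.0205%). These are both siRNA targets and 4930486L24Rik, whose entry follows from how it was selected, and nothing is read from it. The counts at an unadjusted p under 0.05 were 2292, 2634 and 987 of the 14601 genes in the same order. Both knockdowns share the 3 control libraries. The 279 called with Dppa2 siRNA became 100 to 232 when 1 library was left out, and the other counts are followed in the section on processing.

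All 8 members are read from the minus strand and span 727.5 kb. The nearest start to that of 4930486L24Rik among the members is that of Ctla2b, 33.0 kb away, followed by Tpbpb at 40.4 kb, Ctla2a at 72.2 kb and Tpbpa at 77.5 kb. All 4 of these nearest members were at 0 reads. Farther out are Ctsj at 141.5 kb, Ctsq at 176.2 kb and Cts3 at 705.7 kb.

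From Ctsll3 to Cts3, the cluster holds 6 further genes of the deposited table that are not members, all of them cathepsin genes. The cathepsin L relative BC051665, next to Ctsll3, is counted with the 1 Mb before the cluster and had 0 reads in all 9 libraries. Ctsll3, whose start lies on the other side of 4930486L24Rik from the members, had 0 reads in all 9 libraries, as had Ctsr, Cts6 and Cts8. Cts7 had 1 read in each control library, and Ctsm had 2, 3 and 0. Both had 0 reads in all 6 knockdown libraries. With the share of reads that 4930486L24Rik kept, Ctsm would have 0.0621 reads left with Dppa2 siRNA and 1.4 with Dppa4 siRNA, and Cts7 0.0373 and 0.839, so a shared response could not be seen for either. Of the 14 genes in the cluster, 10 had 0 reads throughout, 3 had a few control reads and were not tested, and 1 was tested.

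**Figure D2:**
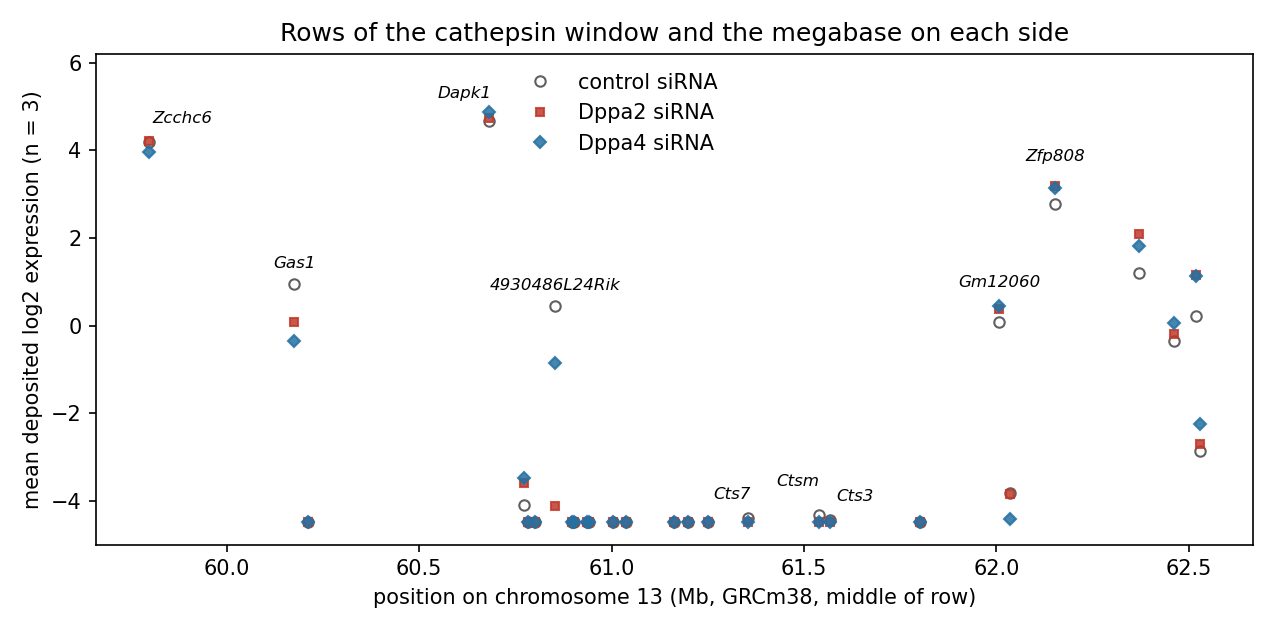
Mean deposited log2 expression (vertical axis, n = 3) of each gene of the cluster and of 1 Mb on each side, by the middle of the gene on chromosome 13 in Mb (horizontal axis), for control siRNA, Dppa2 siRNA and Dppa4 siRNA. Between Dapk1 and Gm12060, 4930486L24Rik is the one gene whose control mean, 0.44, stands far above the value for 0 reads.

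On either side of the cluster some genes are transcribed in these cells, and those tested were not called. In the 1 Mb before it, 3 of 6 genes were tested and 0 were called with either siRNA, and in the 1 Mb after it 5 of 8 were tested and 0 called. At an unadjusted limma p under 0.05 there was 1 gene before and 0 after in each knockdown, beside 2292 and 2634 of all 14601. Limma alone passed 1 gene, with Dppa4 siRNA. Dapk1, a kinase of cell death pathways and the nearest tested gene on that side, had mean log2 levels of 4.67 in the control, 4.73 with Dppa2 siRNA and 4.87 with Dppa4 siRNA. Zcchc6, a terminal uridylyltransferase gene, differed from its control mean by 0.00 with Dppa2 siRNA and −0.24 with Dppa4 siRNA.

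Gas1, a membrane protein that takes part in hedgehog signalling, is the gene that limma alone passed. Its log2 levels were 0.86, 0.83 and 1.14 in the control libraries, −0.22, 0.20 and 0.30 with Dppa2 siRNA and −0.45, −0.36 and −0.28 with Dppa4 siRNA. Every knockdown library lies below every control library, and every Dppa4 siRNA library below every Dppa2 siRNA library. The log2 difference from the control was −0.85 with Dppa2 siRNA (SE 0.20, adjusted p = 0.0584) and −1.31 with Dppa4 siRNA (SE 0.20, adjusted p = 0.00916), each in 3 of 3 libraries, and neither passed the intensity difference filter. The second adjusted p lies between 0.00363 and 0.0517 over the alternatives, and misses 0.05 without Dppa4 A (0.051, log2 difference −1.26) or Dppa4 B (0.0517, −1.31). The lower mean is thus with Dppa4 siRNA, the opposite order to 4930486L24Rik, and the difference between the knockdowns of −0.46 did not pass the test (adjusted p = 0.735).

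After the cluster the first tested gene is Gm12060 (chr13:62006666-62006941). Its mean log2 levels were 0.08, 0.38 and 0.46 in the control, Dppa2 siRNA and Dppa4 siRNA groups. Another row of that name lies on chromosome 11 and was not tested. Behind the chromosome 13 row lie zinc finger genes and CT573034.1 that vary among the control libraries. Zfp808 had 4.44, 3.16 and 0.71 in control A, B and C. CT573034.1 had 230, 142 and 19 reads in the same libraries, against 90, 169 and 90 with Dppa2 siRNA and 76, 144 and 120 with Dppa4 siRNA. Control C is the low library for these genes. For 4930486L24Rik control C is not low, with 0.67 on the log2 scale, next to 0.62 in control B and 0.03 in control A. Without control C, the log2 difference of 4930486L24Rik from the control is −4.44 with Dppa2 siRNA and −1.19 with Dppa4 siRNA.

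The relatives of cathepsin L on chromosome 13 and the other cathepsins show which proteases these cells do express. Of 12 chromosome 13 relatives, Ctsl itself among them, 7 had 0 reads in all libraries, 2 were tested, and the one besides 4930486L24Rik is Ctsl. Ctsl had mean log2 levels of 6.95 in the control, 7.05 with Dppa2 siRNA and 7.07 with Dppa4 siRNA, differences of 0.10 (adjusted p = 0.851) and 0.12 (adjusted p = 0.711). Without 4930486L24Rik, limma called 0 of this list, and 0 had an unadjusted p under 0.05 in either knockdown. Of 15 cathepsin genes and relatives elsewhere in the genome, 10 were tested and 0 called. Their unadjusted p was under 0.05 for 1 gene with Dppa2 siRNA and for 0 with Dppa4 siRNA, beside 2292 and 2634 of all 14601. The median log2 difference of the 10 was 0.15 in the Dppa2 knockdown and 0.10 in the Dppa4 knockdown, beside 0.02 and 0.03 over all tested genes. The most abundant, the aspartic protease Ctsd, had 7.58, 7.72 and 7.69 in the control, Dppa2 siRNA and Dppa4 siRNA groups.

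None of the tested cystatin family genes was called, and the cathepsin inhibitors Ctla2a and Ctla2b could not be tested. Of 19 cystatin family genes, 8 had 0 reads in all libraries, 6 were tested and 0 called by limma with the intensity difference filter. At an unadjusted p under 0.05 there were 0 genes with Dppa2 siRNA and 1 with Dppa4 siRNA, beside 2292 and 2634 of all 14601. The median log2 differences of the 6 were 0.13 and 0.22. Cst3, which encodes cystatin C, an inhibitor of cathepsin L, was the most abundant at 5.45 in the control, 5.35 with Dppa2 siRNA and 5.27 with Dppa4 siRNA.

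Markers of trophoblast, the lineage in which the cluster is known to be active, were checked in the same libraries. Of 34 genes, 11 had 0 reads in all 9 libraries. These are the placental hormone genes Prl2c2, Prl3d1, Prl3b1, Prl8a8 and Prl8a9, the glycoprotein genes Psg17, Psg18, Psg19, Psg21 and Psg23, and the envelope gene Synb. The most abundant gene of the list was Peg10, an imprinted gene needed in the placenta that these stem cells also express, at 8.11 in the control, 8.24 with Dppa2 siRNA and 8.35 with Dppa4 siRNA. The summed linear level of the list was 540.6, 462.6 and 424.0 in the control libraries, 455.7, 590.8 and 477.0 with Dppa2 siRNA and 483.2, 526.1 and 537.2 with Dppa4 siRNA, and the groups overlap. Peg10 makes up 47.6% to 70.8% of this sum. The other 33 genes sum to 160, 185 and 222 in the control libraries, 213, 173 and 205 with Dppa2 siRNA and 205, 185 and 170 with Dppa4 siRNA, where the groups overlap as well. Of the 20 tested genes 0 were called with either siRNA, beside 1.91% and 1.95% of all tested genes. An unadjusted limma p under 0.05 was found for 3 and 5 of them, beside 2292 and 2634 of all 14601. The median log2 differences of the 20 were −0.00 and −0.03. Limma alone passed Gata2, a transcription factor of trophoblast and blood cells, with a log2 difference of −0.99 with Dppa2 siRNA (adjusted p = 0.0231) and −0.83 with Dppa4 siRNA (adjusted p = 0.0474), in 3 of 3 libraries each. Over the alternatives these adjusted p-values run from 0.00609 to 0.104 and from 0.0145 to 0.164. The first misses 0.05 when any library but Dppa2 B, Dppa4 A or Dppa4 C is left out, with log2 differences of −1.08 to −0.91, and the second when any of the 9 is left out, with −0.92 to −0.74. Both also miss it with the replicate block (0.099 and 0.147) and with only the 2 groups compared (0.0927 and 0.108), and the second with no filter on low values (0.109), all at unchanged log2 differences. Gata2 was picked out after its values were seen.

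Pluripotency genes were expressed in every group of these cells, which are labelled embryonic stem cells. All 11 of the list were tested and 0 were called. At an unadjusted limma p under 0.05 there was 1 gene in each knockdown, beside 2292 and 2634 of all 14601. The median log2 differences of the 11 were 0.10 with Dppa2 siRNA and 0.07 with Dppa4 siRNA. Pou5f1, which encodes OCT4, had mean log2 levels of 10.19, 10.29 and 10.33 in the control, Dppa2 siRNA and Dppa4 siRNA groups.

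The 2-cell-like genes show what both knockdowns did to the transcripts that Dppa2 and Dppa4 are known for. Of 15 listed genes 14 were in the table, and all 14 fell with Dppa2 siRNA and with Dppa4 siRNA. The median log2 change was −6.20 and −6.03, or −5.82 and −6.03 with genes at 0 reads set to 3 reads in each library. Zscan4d, a gene of the 2-cell embryo and the most abundant of the list, went from 4.83 in the control to −2.11 with Dppa2 siRNA and −2.55 with Dppa4 siRNA. The median share of control reads kept was 1.03% in the Dppa2 knockdown (0.213% to 22.4%) and 0.881% in the Dppa4 knockdown (0.298% to 18.5%). In these, 5 and 2 genes had 0 reads and enter as upper bounds, the highest of them Tcstv1. The difference between Dppa4 siRNA and Dppa2 siRNA had a median of 0.07 (−0.59 to 1.29), with 0 of 14 called by limma and 1 at an unadjusted p under 0.05. Beside these, 4930486L24Rik kept 1.70% with Dppa2 siRNA and 31.7% with Dppa4 siRNA.

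Across the genome, 222 genes other than 4930486L24Rik and the siRNA targets were called lower with Dppa2 siRNA, and 160 of them were also called with Dppa4 siRNA. Their log2 difference between Dppa4 siRNA and Dppa2 siRNA had a median of 0.16, quartiles of −0.01 and 0.37 and a range of −1.01 to 2.14. Of the 222, 0 exceeded the 3.26 of 4930486L24Rik. That difference is the value it was chosen for, and nothing is read from its place at the end of the range.

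The 5 genes most like 4930486L24Rik were found by the root mean square difference of log2 values, each relative to its control mean, over the 9 libraries. Col17a1, a collagen of epithelial attachment, was nearest at 0.68, followed by Vdr, the vitamin D receptor, at 0.71, Dppa2 at 0.997, Gm16302 at 1.06 and Cd3e, a part of the T cell receptor complex, at 1.09. Dppa2 differs from the rest, since it is the siRNA target and stood at its control level with Dppa4 siRNA.

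Col17a1 had 53, 117 and 40 reads in the control libraries, 5, 4 and 0 with Dppa2 siRNA and 15, 16 and 13 with Dppa4 siRNA. Its log2 mean differed from the control by −3.82 with Dppa2 siRNA and −1.68 with Dppa4 siRNA, and its groups do not overlap. Cd3e had 71, 114 and 63 control reads, 9, 0 and 1 with Dppa2 siRNA and 15, 7 and 11 with Dppa4 siRNA. Its log2 mean differed by −4.39 and −2.53, and its knockdown libraries overlap. Vdr had 16, 35 and 13 control reads, 0 in all Dppa2 siRNA libraries and 5, 4 and 6 with Dppa4 siRNA, with a log2 difference of −1.50 for the latter. Gm16302 had 25, 60 and 31 control reads, 4, 2 and 2 with Dppa2 siRNA and 12, 7 and 5 with Dppa4 siRNA, and log2 differences of −2.90 and −1.82.

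As shares of depth-corrected control reads, Col17a1 kept 5.88% with Dppa2 siRNA and 23.7% with Dppa4 siRNA. Cd3e kept 5.53% and 15.1%, and Gm16302 9.46% and 23.4%. Vdr kept at most 19.3% with Dppa2 siRNA, with 0 reads in each library taken as 3, and 26.5% with Dppa4 siRNA. These genes were picked for their likeness to 4930486L24Rik over the same 9 libraries, so that they share its order between the knockdowns follows from the choice, and they are described with no test.

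The transcript of 4930486L24Rik is 1432 bases long, with 8 exons and a coding sequence of 333 codons. Among the cathepsin genes of the cluster, its coding sequence is closest to that of Ctsll3, at 74.8% identical bases, with Ctsm at 72.6%, Ctsq at 72.4%, Ctsj at 72.3% and Cts3 at 72.0%. Ctsl, the relative with a high level in these cells, is at 70.5%. Among the members, Ctla2b and Ctla2a share 96.2% and Tpbpb and Tpbpa 86.5% of aligned coding bases.

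Whether reads can be assigned to 1 gene was examined with the annotation. Of the stretches of 50 bases in the 4930486L24Rik transcript, 0% occur in a transcript at another place, so a copy elsewhere does not share its reads at that length. However, 88.3% of them also belong to Gm49392 (chr13:60842621-60896894), an annotated read-through gene on the same strand that contains 6 exons identical to those of 4930486L24Rik and overlaps 2 exons of Ctla2b. Another, Gm49393 (chr13:60853230-60935590), joins exons of 4930486L24Rik to an exon of Ctla2a. Neither is a row of the deposited table, and reads of 4930486L24Rik and of these read-through genes cannot be told apart in it. Of the stretches of Ctla2b, 24.5% belong to Gm49392, and Ctla2b had 0 reads.

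For the other members the same search gave few copies elsewhere. Ctla2b and Ctla2a have 11.9% and 12.2% of their stretches at another place, Tpbpb 4.74% and Tpbpa 6.24%, and Ctsj and Ctsq 0%. Cts3 has 12.2% at another place, chiefly in Ctsm. Ctla2b also has 84.6% and Ctla2a 24.1% in read-through genes that overlap them. Stretches found in no other transcript make up 13.9% of Ctla2b, 69.9% of Ctla2a, 87.2% of Cts3, 93.8% of Tpbpa, 95.3% of Tpbpb and 100% of Ctsj and Ctsq.

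The 250 bases before the start of 4930486L24Rik were compared with those of its neighbours at or near 0 reads. All 14 genes of the cluster matched a RefSeq promoter of build GRCm38.p6. The motif TTTAAA, which is its own reverse complement, was picked after the sequences had been read. It occurs between 40 and 21 bases before the start in 7 of the 14 genes, 4 of them members, and in 1.18% of all 32851 promoters. At any place in the 250 bases it is found in 9 of the 14 genes and 12.1% of all promoters. In Tpbpa, Tpbpb and Ctsj it begins 29 bases before the RefSeq start and in Cts3 36. These counts depend on the annotation. By the starts of the GENCODE transcripts used above for lengths, the motif lies in that interval in 4 of the 14 genes, of which Cts3 is the 1 member. There it begins 48 bases before the start in Tpbpa, and in Tpbpb and Ctsj, whose transcripts start 33 and 34 bases earlier, it lies inside the transcript. The 250 bases before the RefSeq start of 4930486L24Rik hold neither TTTAAA nor TATAAA on either strand, the latter found in 12.4% of all promoters. The same holds for Ctla2b, the nearest member, which is at 0 reads. Ctla2a, Ctsq and Ctsll3, also at 0 reads, lack TTTAAA but hold TATAAA. The GENCODE transcript of 4930486L24Rik starts 59 bases earlier, and 191 of the 250 bases lie before that start. The RefSeq promoter of 4930486L24Rik has 0 CG pairs, as have those of Cts3, Cts7 and Ctsr and 7.87% of all promoters, whose median is 6. A match is a description of the letters and says nothing of a factor.

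The promoter of 4930486L24Rik is shown beside those of Tpbpa, Ctsj and Cts3, which are members with the motif and no or few reads. All are on the minus strand and written 5′ to 3′, up to the base before the RefSeq start, at chr13:60864417-60864666, chr13:60941937-60942186, chr13:61005926-61006175 and chr13:61570128-61570377. By the GENCODE transcripts, the last 59 bases shown for 4930486L24Rik and the last 34 for Ctsj are transcribed. Capitals mark TTTAAA and, in Cts3, also TATAAA or its reverse complement.
4930486L24Rik: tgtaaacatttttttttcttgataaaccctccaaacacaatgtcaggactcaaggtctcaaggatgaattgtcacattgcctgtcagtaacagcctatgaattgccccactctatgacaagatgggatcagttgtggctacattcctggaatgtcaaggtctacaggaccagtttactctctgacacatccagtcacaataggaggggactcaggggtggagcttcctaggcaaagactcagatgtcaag
Tpbpa: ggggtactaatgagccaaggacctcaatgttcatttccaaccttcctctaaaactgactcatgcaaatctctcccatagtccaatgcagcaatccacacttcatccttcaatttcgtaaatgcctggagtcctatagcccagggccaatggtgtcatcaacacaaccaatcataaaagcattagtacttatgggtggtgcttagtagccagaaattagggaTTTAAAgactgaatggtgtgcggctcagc
Ctsj: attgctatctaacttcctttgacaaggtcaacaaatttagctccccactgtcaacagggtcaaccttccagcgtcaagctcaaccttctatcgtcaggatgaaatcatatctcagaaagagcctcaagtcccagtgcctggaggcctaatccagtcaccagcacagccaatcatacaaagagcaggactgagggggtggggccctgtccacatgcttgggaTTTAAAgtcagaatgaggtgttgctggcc
Cts3: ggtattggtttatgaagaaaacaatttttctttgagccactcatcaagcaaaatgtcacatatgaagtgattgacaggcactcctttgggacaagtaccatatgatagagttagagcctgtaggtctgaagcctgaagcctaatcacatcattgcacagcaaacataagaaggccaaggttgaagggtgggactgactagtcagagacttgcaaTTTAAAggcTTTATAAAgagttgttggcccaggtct
Over aligned bases, 71.6% to 80.8% of each promoter, that of 4930486L24Rik is 67.3% to 77.7% identical to those of the other members. The highest value, with Ctsj, comes from the shortest of these alignments. For Ctsl, outside the cluster, identity is 66.7% over 76.8% of the promoter. Other pairs of a cathepsin and a Ctla2 gene gave 74.6% for Ctsll3 and Ctla2b and 72.0% for Ctsl and Ctla2b. Ctsl and Ctla2a gave 65.0% or 65.5%, by the RefSeq start used. No relation between promoters is read from identities of this size. Near-copies occur among the members at 0 reads, with 96.8% identity between Tpbpb and Tpbpa and 91.2% between Ctla2b and Ctla2a.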

How the data were processed

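Polyadenylated RNA was sequenced from 9 libraries, 3 for each siRNA. The authors deposited log2 expression per mRNA, with distributions matched across libraries; per the submitters' processing notes reads were trimmed with Trim Galore 0.4.5 and mapped to GRCm38 with HISAT2 2.0.5. The members and the gene lists (chromosome 13 cathepsin L relatives, cathepsins elsewhere, cystatins, trophoblast, pluripotency, primitive endoderm, fibroblast and 2-cell-like genes) were chosen with earlier results of these data known.

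Genes above −2 in at least 3 of 9 libraries (14601) were tested together in limma 3.58.1 (R 4.3.3) with an intensity trend, and p-values were adjusted by Benjamini-Hochberg over all of them. Called genes have an adjusted p under 0.05 and p under 0.05 in the intensity difference filter, a normal model of the differences of the 1% of genes nearest in mean level. The fit was also run on simulated data, and no result given here rests on that run. Reads were inferred up to 300 from the order of distinct values, and depth was estimated from the values (pandas 2.3.3 and numpy 2.4.6 in Python 3.11.15), with intervals from scipy 1.17.1 and plots from matplotlib 3.10.9. Intervals are exact binomial (Clopper-Pearson).

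Named genes are the 8 members, both siRNA targets, every gene of the cluster with a read, the 3 tested genes nearest to it and each called gene within 1 Mb on each side, the most abundant and up to 6 called genes of each list, and the 5 genes most like 4930486L24Rik. Alternatives were no filter, a stricter filter, pseudocounts, median centring, quantile normalization, no intensity trend, a fit of only the groups compared, a replicate block, limma alone, an adjusted intensity filter, reads scaled by library depth and leaving out each library. No amino acid sequence was available.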

Additional observations from a re-analysis of the deposited data

How the results depend on the processing

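Among the 7 members other than 4930486L24Rik, 0 were called in each of the 3 comparisons under every alternative tried. They were tested with no filter alone, where limma by itself passed 6 of the 7 in Dppa2 siRNA against control siRNA, at an unadjusted p under 0.05 for the same number, and 0 in the others; those 6 have 0 reads in every library and differ by 0.01 in the value that stands for 0. The log2 difference of 4930486L24Rik kept its sign: −5.91 to −1.16 in Dppa2 siRNA against control siRNA, −1.77 to −0.61 in Dppa4 siRNA against control siRNA and 0.55 to 3.40 between the knockdowns. The values nearest 0 come with a pseudocount of 1, and those with a pseudocount of 0.25 are −2.38, −1.01 and 1.37. Leaving out 1 library gave −4.76 to −4.38, −1.51 to −1.19 and 3.08 to 3.40. The 279 genes called in Dppa2 siRNA against control siRNA became 457 with no filter, 184 with the stricter filter, 174 with the 2 groups alone, 502 with limma alone, 92 with the adjusted intensity filter and 100 to 232 without 1 library (149, 100 and 163 without control A, B and C, 184 without Dppa2 C). The 284 in Dppa4 siRNA against control siRNA became 176 with the replicate block, 502 with limma alone, 73 with the adjusted intensity filter and 115 to 279 without 1 library (115, 123 and 185 without control A, B and C, 159 and 142 without Dppa4 A and B). The 3 in Dppa4 siRNA against Dppa2 siRNA became 1, Dppa2, with the replicate block and 1 to 3 without 1 library, with 1, again Dppa2, when Dppa4 B or C is left out. They became 2, both siRNA targets, with either pseudocount, with the 2 groups alone and without control B, Dppa2 A or Dppa4 A. The cause was not tested. Of the other genes that the rule takes, with Gata2, Gata6, Sox17, Lamb1 and Tcstv1, 33 values over 9 results passed the threshold anew, 29 over 11 results no longer passed, 1684 did neither and none turned in sign after a call. Whether equal library letters mark paired samples is not given by the labels. Deviations from the group mean correlated at −0.585 to 0.367 for equal letters and −0.658 to 0.692 for unequal ones. With 3 libraries in a group these correlations depend on one another and cannot decide whether the letters pair. Depth limits every other gene of the cluster, since a count of 0 allows 3 reads.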

Other observations

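Primitive endoderm genes, which mark a lineage that stem cells in serum can enter, were measured in the same libraries. All 10 genes were tested and 0 were called by limma with the intensity difference filter. At an unadjusted p under 0.05 there were 4 with Dppa2 siRNA and 6 with Dppa4 siRNA, beside 2292 and 2634 of all 14601. The median log2 difference was 0.31 for the Dppa2 knockdown and 0.94 for the Dppa4 knockdown, beside 0.02 and 0.03 over all tested genes. Limma alone passed 2 of them with Dppa4 siRNA, Gata6 and Sox17, and these and Lamb1 are named after their values were seen. Gata6, a transcription factor of this lineage, had mean log2 levels of 0.30, 1.04 and 1.74 in the control, Dppa2 siRNA and Dppa4 siRNA groups, a difference of 1.44 for Dppa4 siRNA (adjusted p = 0.0132, higher in 3 of 3 libraries, 0.00645 to 0.076 over the alternatives). It misses 0.05 without Dppa4 A (0.0666, difference 1.43) or Dppa4 B (0.076, difference 1.41). Control C is the low library here too, with 0.62, 0.56 and −0.28 in control A, B and C, and without it the difference is 1.15. Sox17, another such factor, differed by 1.20 for Dppa4 siRNA (adjusted p = 0.0348, higher in 3 of 3 libraries, 0.0226 to 0.143 over the alternatives). It misses 0.05 without control A or C or any of the Dppa4 siRNA libraries, with differences of 1.09 to 1.22. It also misses it with the replicate block (0.1), with only the 2 groups compared (0.0659) and with no filter on low values (0.098), all at an unchanged difference. Lamb1, a laminin chain and also among the 6, had a log2 difference of −0.36 with Dppa4 siRNA (adjusted p = 0.0928, lower in 3 of 3 libraries). The summed linear level of the list was 248.5, 255.2 and 241.1 in the control libraries, 219.2, 217.8 and 229.1 with Dppa2 siRNA and 219.2, 229.7 and 240.7 with Dppa4 siRNA. Sparc, Lamb1 and Col4a1 make up 90.4% to 95.8% of this sum, and its lowest control library is next to Dppa4 siRNA library C. The other 7 genes sum to 13.2, 14 and 10.2 in the control libraries, 13.7, 16.8 and 17.3 with Dppa2 siRNA and 19.6, 22.0 and 21.1 with Dppa4 siRNA. Sparc, a matrix protein and the most abundant gene of the list, had 6.95, 6.71 and 6.86 in the control, Dppa2 siRNA and Dppa4 siRNA groups.

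Of 9 fibroblast genes, 1 had 0 reads in all libraries, 4 were tested and 0 were called. At an unadjusted limma p under 0.05 there were 2 in each knockdown, beside 2292 and 2634 of all 14601. The median log2 difference of the 4 was −0.32 for the Dppa2 knockdown and −0.14 for the Dppa4 knockdown. The 4 ranged from −1.43 to 0.30 with Dppa2 siRNA and from −1.40 to 0.12 with Dppa4 siRNA. Thy1, a surface glycoprotein and the most abundant of them, had 2.42, 2.19 and 2.54 in the control, Dppa2 siRNA and Dppa4 siRNA groups.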
